A study of Mus musculus with 4 samples.

Results

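The acyl-CoA thioesterases examined were the 10 genes Acot1, Acot2, Acot3, Acot4, Acot7, Acot8, Acot9, Acot10, Acot11 and Acot13, measured by 12 of the 55681 probes of the array. The family was selected on a measured difference, namely that Acot11 was lower without ASK1 in both fat tissues. All comparisons of ASK1KO with WT are therefore a description, with no test. Gene expression was measured in interscapular brown adipose tissue (iBAT) and epididymal white adipose tissue (eWAT) of male mice aged 10 weeks and kept under normal conditions. The ASK1KO mice lack ASK1, a stress-activated kinase encoded by Map3k5, in the whole body, and the WT mice came from a separately bred colony. There were 4 one-colour arrays, namely WT iBAT, ASK1KO iBAT, WT eWAT and ASK1KO eWAT, each with RNA pooled from 3 mice. Each condition is thus 1 sample with an unknown spread among mice, and colony and genotype cannot be told apart.

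Acyl-CoA thioesterases split a fatty acyl-CoA into a free fatty acid and coenzyme A, the reverse of what acyl-CoA synthetases do when they activate a fatty acid. Acot1 to Acot6 are related enzymes encoded side by side on one chromosome, and they work in the cytosol, mitochondria and peroxisomes, whereas Acot7 to Acot13 belong to a structurally different group. Acot11, also called Them1 or BFIT, was first known as a thioesterase of brown fat that is induced by cold, and it limits how much fatty acid the tissue burns.

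From 28985 to 33389 probes gave a signal well above background on an array, and this signal is an intensity in arbitrary units. For comparisons, it was put on the log2 scale relative to the 75th percentile of its own array, and a gene's level is the mean over its probes well above background. In the check of the deletion, one Map3k5 probe in ASK1KO was at 0.250 of its WT level in iBAT and 0.294 in eWAT, whereas the other was at 0.959 and 0.702. All 15 brown adipocyte markers were detected in WT iBAT, and all 12 that were measured on the 4 arrays were higher in iBAT than in eWAT. Lep, the leptin gene of white fat, was lower in iBAT by 4.49 on the log2 scale. Beside these, all 9 skeletal muscle markers were detected on both iBAT arrays, and most markers of brown adipocytes, muscle and hepatocytes were brighter on the WT than on the ASK1KO array of eWAT.

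Of the 12 probes of the family, 11 were well above background on all 4 arrays, so all 10 genes were measured in every sample. The exception was 1 of 2 Acot3 probes, which was not well above background on any array. Probe positions are given on mm9 as the files state them, and exons were not assigned, since no genome of that build was used. The first 30 of the 60 bases are shown for the probes on which the results turn, because members of this family resemble each other. Capitals mark bases within a stretch of 20 that another probe of the array also holds.
Acot11, chr4:106417185-106417244, minus strand: gttgctacctcattctcttaagagttcagc
Acot1, chr12:85358561-85358620, plus strand: tctatggaaactggagctatccaagaaaag
Acot2, chr12:85334071-85334130, plus strand: ggggaaacctcatatatattatcacaatgt
Acot13, chr13:24909838-24909897, minus strand: cgggaagacccgaagaagcccaacaatgcc
Acot3, chr12:85400452-85400511, plus strand: gtgtACACACACACATATACACACAagcac
Over the 136 pairs of the 17 Acot probes, which include those of Acot5, Acot6 and Acot12, the best alignment without gaps had 27 identical bases of 60. Probes were compared with probes and not with the transcripts of other members, so whether a probe also binds another member was not tested. The Acot3 probe shown was the only one of the 17 with a shared stretch, a run of alternating bases that is also found in probes of Itgam and Slc35e2.

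Acot11 was the member whose level differed most between ASK1KO and WT, in iBAT and in eWAT alike. Its signal was 24916 in WT iBAT, 9064 in ASK1KO iBAT, 363 in WT eWAT and 167 in ASK1KO eWAT. The order of the 4 arrays was thus first by tissue and then by genotype, and the lower iBAT array was still far brighter than the higher eWAT array. On the scaled log2 level, ASK1KO minus WT was -1.52 in iBAT, a 2.87-fold lower value, and the scanner software gave an error of 0.204 for this difference. In eWAT ASK1KO minus WT was -1.03, a 2.05-fold lower value, with an error of 0.209. These errors cover the array and not the mice, and in such pools of whole tissue fewer cells of a type and less RNA per cell cannot be told apart.

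By the count of genes that differed at least 2-fold, 1 of the 10 members was lower in ASK1KO iBAT, beside 1.02% of the 14377 genes measured there. In eWAT it was again 1 of 10, beside 0.865% of 15377 genes. In both tissues this member was Acot11, which was 1 of 10 genes lower by this measure in both, or 0.0711% of 14059. No member was at least 2-fold higher, beside 0.835% of genes in iBAT and 0.286% in eWAT. In iBAT 0.271% of genes had a lower difference than Acot11, and in eWAT 0.774% had. The eWAT value lay close to the 2-fold limit. With normexp background correction, a model that removes background from the raw signal and here adds an offset of 50, it was -0.80 and no member reached 2-fold. At that setting 0.325% of all genes were at least 2-fold lower in ASK1KO eWAT and 0.065% higher.

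**Figure D1:**
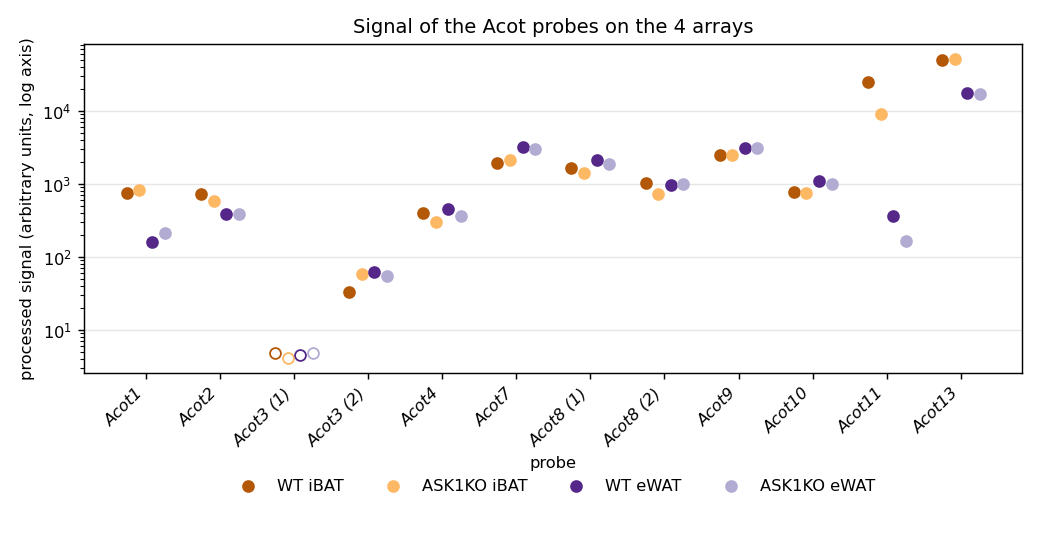
Signal of each Acot probe on the 4 arrays, as processed by the scanner software and not scaled between arrays, in arbitrary units on a log axis. Genes with 2 probes have them numbered by position, and open circles mark values not well above background. Acot11 went from 24916 in WT iBAT to 167 in ASK1KO eWAT, whereas the 4 values of Acot9 lay between 2468 and 3121.

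The other members differed less between the genotypes. Over all 10 members the median log2 difference was -0.08 for iBAT and -0.01 for eWAT, beside -0.07 and 0.02 for all genes. Among the members other than Acot11, the lowest log2 difference was -0.44 in iBAT and -0.24 in eWAT, both at Acot4.

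Acot1, the cytosolic enzyme for long-chain acyl-CoA, gave a signal of 739 in WT iBAT, 825 in ASK1KO iBAT, 161 in WT eWAT and 210 in ASK1KO eWAT. The log2 difference was 0.10 in iBAT and 0.47 in eWAT. The latter was the highest of the family in that tissue, and 97.5% of genes had a lower value. Acot2, the mitochondrial counterpart of Acot1, gave 724 in WT iBAT, 580.0 in ASK1KO iBAT, 391 in WT eWAT and 385 in ASK1KO eWAT. Acot2 was thus dimmer in the ASK1KO pool of iBAT, with a log2 difference of -0.38, and nearly level in eWAT at 0.07.

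Acot4, Acot8 and Acot3 are peroxisomal enzymes. Acot4, which acts on succinyl-CoA and other dicarboxylic acyl-CoAs, gave 393 in WT iBAT, 303 in ASK1KO iBAT, 453 in WT eWAT and 359.9 in ASK1KO eWAT. Its log2 difference was -0.44 in iBAT and -0.24 in eWAT, which makes it the other member that was lower in the ASK1KO pool of both tissues by more than the software's errors of 0.206 and 0.205. Acot8, a peroxisomal enzyme with a broad range of substrates, has 2 probes, whose log2 differences in iBAT were -0.54 and -0.30. In eWAT the same probes gave 0.12 and -0.09, so they differed in sign.

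Acot3, a peroxisomal long-chain enzyme, was the dimmest member. Its detected probe gave 32.9 in WT iBAT, 57.8 in ASK1KO iBAT, 62.6 in WT eWAT and 54.0 in ASK1KO eWAT. The lowest signal well above background was 17.3 to 20.7 on these arrays, so WT iBAT lay near that limit. Its log2 difference was 0.75 in iBAT, the highest of the family, and -0.13 in eWAT, with software errors of 0.297 and 0.253. The probe of Slc35e2 that holds the same run of bases had log2 differences of 0.66 in iBAT and -0.28 in eWAT, and the one of Itgam 0.27 and -0.12. What these shared bases add to the Acot3 signal was not tested.

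The remaining members were nearly level between the genotypes. Acot9, a mitochondrial thioesterase, gave 2503 in WT iBAT, 2468 in ASK1KO iBAT, 3121 in WT eWAT and 3100.4 in ASK1KO eWAT. Acot13 (Them2), a mitochondria-associated enzyme for long-chain acyl-CoA, gave 49650 in WT iBAT, 51895 in ASK1KO iBAT, 17746 in WT eWAT and 17038 in ASK1KO eWAT. For Acot13 the log2 difference was 0.00 in iBAT and 0.03 in eWAT. Acot7, a cytosolic enzyme abundant in brain, and Acot10, a close relative of Acot9, had log2 differences from -0.09 to 0.07 over both tissues.

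**Figure D2:**
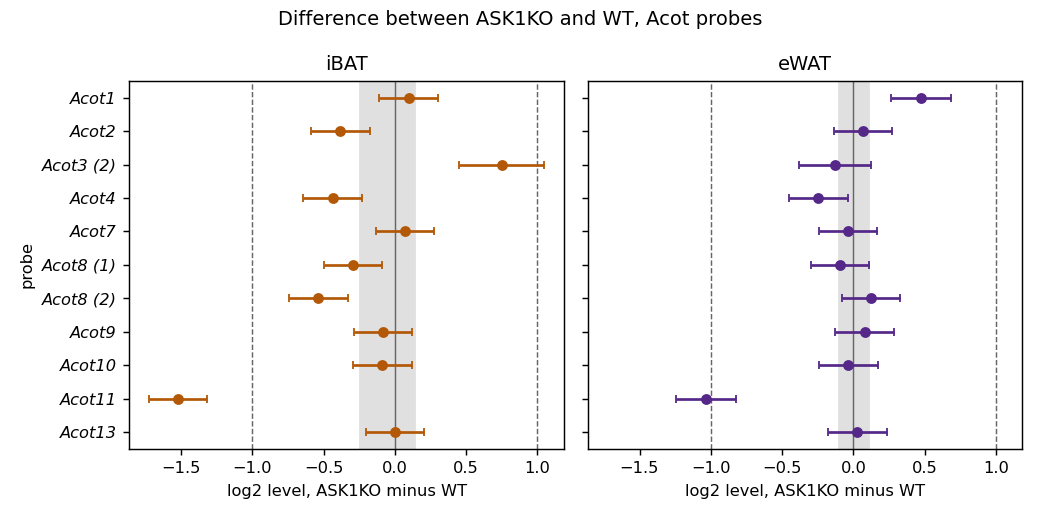
Log2 level in ASK1KO minus WT for each Acot probe well above background on all 4 arrays, in iBAT and in eWAT, with the scanner software's error as bars. The grey band holds the middle 50% of all genes and dashed lines mark 2-fold, and Acot11 is the only probe beyond or at a dashed line, at -1.52 and -1.03.

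The comparison of iBAT with eWAT was not used to select the family and could be tested over the 4 arrays. It was fitted with limma on the scaled log2 levels with genotype as a second term, and p-values were adjusted over 14057 genes. The residual of this fit has 1 degree of freedom, which is how far the tissue difference in WT differs from that in ASK1KO. The limma step then draws the variance of each gene towards a value from all genes, with a prior of 5.24 degrees of freedom. The SE and p-value of a gene thus rest largely on this shared variance. Of the 10 members, 7 passed an adjusted p of 0.05 and all of these were higher in iBAT, beside 30.8% of all genes. No member was called lower in iBAT, beside 24.6% of all genes, but without scaling between arrays Acot7 at -0.60 and Acot10 at -0.43 were, with limma adjusted p-values of 0.0147 and 0.0304, and 4 members were called higher. Without scaling 68.2% of all genes were called lower in iBAT and 9.13% higher. The median of the family was 0.59 on the log2 scale, beside 0.07 for all genes.

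Acot11 was 109.8-fold higher in iBAT, with a log2 difference of 6.78 ± 0.17 (SE, 2 arrays a tissue) and an adjusted p of 5.63e-06 with limma. It was 7.02 within WT and 6.54 within ASK1KO, and 99.8% of genes had a lower value. With tissue alone in the fit, the SE of the Acot11 difference was 0.58 and its limma adjusted p was 0.000745. In fits that left out 1 array and also the genotype term, the Acot11 difference was 6.02 without WT iBAT and 7.54 without ASK1KO iBAT. These 2 values mix the difference between genotypes into that between tissues. Acot1 was 7.62-fold higher in iBAT, with a log2 difference of 2.93 ± 0.16 and a limma adjusted p of 5.03e-05. Acot13 was 5.25-fold higher, with a log2 difference of 2.39 ± 0.14 and a limma adjusted p of 6.47e-05. Acot2 was 3.00-fold higher, with a log2 difference of 1.59 ± 0.17 and a limma adjusted p of 0.000523. These 4 members were higher in iBAT within each genotype and under every setting that was tried, including the omission of any 1 array, but without scaling the log2 difference was smaller, at 5.93 for Acot11, 2.08 for Acot1, 1.55 for Acot13 and 0.74 for Acot2.

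Acot4, Acot8 and Acot9 were also called higher in iBAT, with log2 differences of 0.62, 0.56 and 0.52 and limma adjusted p-values of 0.0137, 0.0310 and 0.0245, but without scaling between arrays they had the opposite sign, at -0.23, -0.29 and -0.32. Their unscaled signals show this, as the Acot4 signal of 453 in WT eWAT exceeded the 393 in WT iBAT. The 75th percentile of the eWAT arrays was 634 to 673, against 356 to 371 on the iBAT arrays, and without scaling the median of all genes was -0.77. With no filter on dim probes 4 members were called, and those were Acot1, Acot2, Acot11 and Acot13. When 1 eWAT array and the genotype term were left out, Acot4, Acot8 and Acot9 were at 0.74, 0.55 and 0.48 without WT eWAT. Without ASK1KO eWAT they were at 0.50, 0.56 and 0.56. Acot10 at 0.41, Acot3 at 0.43 and Acot7 at 0.25 were not called, with limma adjusted p-values of 0.0508, 0.154 and 0.196. However, Acot10 was called higher with normexp, with quantile normalization and with tissue alone in the fit. With tissue alone and 1 iBAT array left out, Acot10 was at 0.37 without WT iBAT and at 0.46 without ASK1KO iBAT. Acot3 was called higher with normexp, at 0.55 with a limma adjusted p of 0.00650. When 1 iBAT array and the genotype term were left out, Acot3 was at 0.81 without WT iBAT and at 0.06 without ASK1KO iBAT. The iBAT arrays lie in one row of the slide and the eWAT arrays in the other, so row and tissue cannot be told apart.

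**Figure D3:**
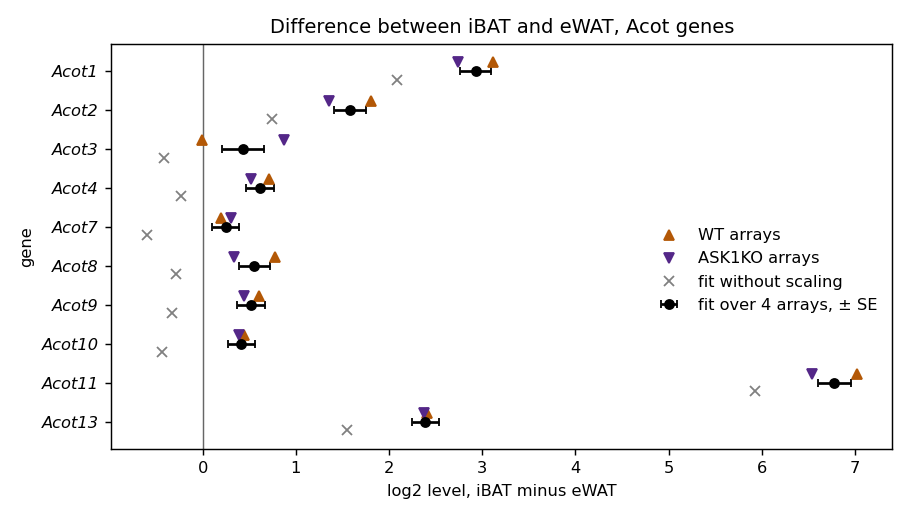
Log2 level in iBAT minus eWAT for each Acot gene. Black points are the fit over 4 arrays with its SE, triangles are the values within WT and within ASK1KO, and grey crosses are the fit without scaling. Acot11, Acot1, Acot13 and Acot2 lie above 0 by every measure, whereas the crosses of the other 6 genes lie below 0.

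Skeletal muscle RNA also moved with tissue, as the 7 muscle markers measured on all arrays were higher in iBAT with a median log2 difference of 8.47, and so did the 12 brown adipocyte markers, with a median of 5.99. Of 9 macrophage markers, with a median of -2.66, 8 were called lower in iBAT and Itgam was not called. The brightest of the 3 Itgam probes is the one that holds the run of bases shared with the Acot3 probe. The part of muscle, brown adipocyte and macrophage RNA in the Acot values was not tested. The Acot11 signal in WT eWAT, scaled, was 0.770% of that in WT iBAT. Over the 12 brown adipocyte markers this share ran from 0.628% to 62.5% in WT, with a median of 1.86%. It was 0.628% for Dio2, which activates thyroid hormone, and 1.02% for Ucp1, the uncoupling protein of brown fat, but 16.0% for Prdm16 and 62.5% for Zic1, both transcription factors. Zic1 has 2 probes, both detected on the iBAT arrays but only 1 on the eWAT arrays, and its share rests on that 1 probe. The brightest Zic1 signal was 855 in WT iBAT and 94.9 in WT eWAT, so the share does not describe the gene as a whole. In ASK1KO the share was 1.08% for Acot11, above its WT share, as it was lower in ASK1KO in both tissues but by less in eWAT. Of the 12 markers, 5 also had a higher share in ASK1KO, among them Dio2 at 1.60% and Zic1 at 75.9%, and 7 a lower one, among them Ucp1 at 0.0560% and the lipid droplet protein Cidea at 0.286%. For Acot1, Acot2 and Acot13 the share lay between 11.5% and 38.9% in both genotypes.

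Other RNA also moved with the Acot11 difference in eWAT. Of 12 brown adipocyte markers measured there, 9 had a lower value in ASK1KO, with a median log2 difference of -0.82, and their summed signal over the list was 39401 in WT and 16217 in ASK1KO eWAT. Of 7 muscle markers 6 were lower, with a median of -0.87, and the summed signal was 6578.5 in WT and 3260 in ASK1KO eWAT. Hepatocyte markers were detected at 10 of 10 in WT and at 5 of 10 in ASK1KO eWAT, and the 5 measured on both had a median of -4.03. The defining genes of the epididymis were not well above background on either eWAT array. In iBAT the brown adipocyte markers had a median of -0.24, with Elovl3 at -4.10 and Dio2 at -2.37 the lowest, and the muscle markers had 0.07. Hepatocyte markers were detected at 3 of 10 in WT and at 8 of 10 in ASK1KO iBAT. All 9 macrophage markers were higher in ASK1KO iBAT, with a median of 0.67. The part of any of these in the Acot11 values was not tested.

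The genes most like Acot11 were sought among the 14047 others measured on all 4 arrays, by the Euclidean distance between the 4 log2 levels after each gene was centred on its own mean. Dio2 was nearest, at a distance of 0.618, and its log2 difference between genotypes was -2.37 in iBAT and -1.02 in eWAT. Car14, a carbonic anhydrase, followed at 0.790, with differences of -0.66 and -0.99. Tuba8 at 0.924, S100b at 0.966 and Myh2, a myosin of skeletal muscle, at 0.971 came next, with differences in iBAT from -0.52 to -0.34. The tissue differences of the 5 lay between 5.97 and 7.32 within a genotype, and they dominate this measure.

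Lists of related genes were compared in the same way. Over the 5 lists together 47 of 74 genes were called higher in iBAT and 12 lower, beside 30.8% and 24.6% of all genes. Without scaling 30 of the 74 were called higher and 26 lower, beside 9.13% and 68.2% of all genes, and the single lists were counted only with scaling. Of 14 measured genes of fatty acid activation and uptake, 1 was at least 2-fold lower in ASK1KO iBAT, beside 1.02% of all genes. This was Acsl5, an acyl-CoA synthetase that makes the substrates of these enzymes, with a log2 difference of -1.62 and signals of 7403 in WT and 2508 in ASK1KO iBAT. In eWAT Acsl5 differed by -0.11. For iBAT the median of these genes was -0.29, and for eWAT it was -0.01. In eWAT 1 of 13 was lower, beside 0.865% of all genes, namely Slc27a5, a bile acid and fatty acid ligase of liver, at -2.69. In iBAT the next lowest were Acss2, which makes acetyl-CoA, at -0.76 and Acsl3 at -0.55, and the highest was Acsbg1 at 0.40. In eWAT Acsl1, the main synthetase of adipocytes, was highest at 0.48.

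None of the 15 measured genes for the supply, breakdown and binding of coenzyme A reached 2-fold in either tissue. In iBAT 12 of the 15 were below 0, beside 59.5% of all genes, with a median of -0.39. The lowest were Pank3, a kinase at the first step of coenzyme A synthesis, at -0.78, and Coasy, the enzyme of the last step, at -0.67. Nudt7, which breaks down coenzyme A in peroxisomes, was at -0.57. In eWAT their median was -0.01, and the lowest was Pank1 at -0.57. Pank1 had a tissue difference near that of Acot11, at 6.24 ± 0.16 with a limma adjusted p of 5.39e-06, and 8 of the 15 were called higher in iBAT and 1 lower, beside 30.8% and 24.6% of all genes.

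Acot1 to Acot4 are known in liver as targets of PPARα, the nuclear receptor that turns on fatty acid oxidation. Of 29 measured PPARα targets, none was at least 2-fold lower in ASK1KO iBAT and 1 was higher, namely Angptl4, an inhibitor of lipoprotein lipase, at 1.02, beside 1.02% of all genes lower and 0.835% higher. With median centring or the series table no gene of the related lists was at least 2-fold higher there. The median of the 29 was -0.13. Slc25a20, the carnitine carrier of mitochondria, was at -0.65. In eWAT 1 of 29 was lower, the muscle and brown fat lipid carrier Fabp3 at -3.02, beside 0.865% of all genes, and the median was 0.04. In the tissue comparison 21 of 29 were called higher in iBAT and 3 lower, beside 30.8% and 24.6% of all genes.

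Of 13 measured genes known to be induced by cold or cAMP in brown fat, the setting in which Acot11 was named, 4 were at least 2-fold lower in ASK1KO iBAT, beside 1.02% of all genes. They were Elovl3, a fatty acid elongase, at -4.10, the immediate early gene Nr4a1 at -2.40, Dio2 at -2.37 and the glycerol kinase gene Gk at -1.25. The list was chosen with earlier results of these arrays known, among them low values of Elovl3, Nr4a1 and Dio2, so its counts are a description only. Ucp1 was at -0.44, and Pdk4 was highest at 0.37. The median of the 13 was -0.44. In eWAT 3 of 12 were lower, beside 0.865% of all genes, namely Ucp1 at -4.63, Cidea at -2.23 and Dio2 at -1.02, and the median was -0.08. The signal of Dio2 was 9820 in WT iBAT, 1978 in ASK1KO iBAT, 117 in WT eWAT and 54.0 in ASK1KO eWAT, so its arrays fell in the same order as those of Acot11. This order is not particular to Dio2, as Ucp1, Cidea and other brown adipocyte markers had it too, though Ppara did not. Dio2 was also the gene found nearest to Acot11 on these same arrays.

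**Figure D4:**
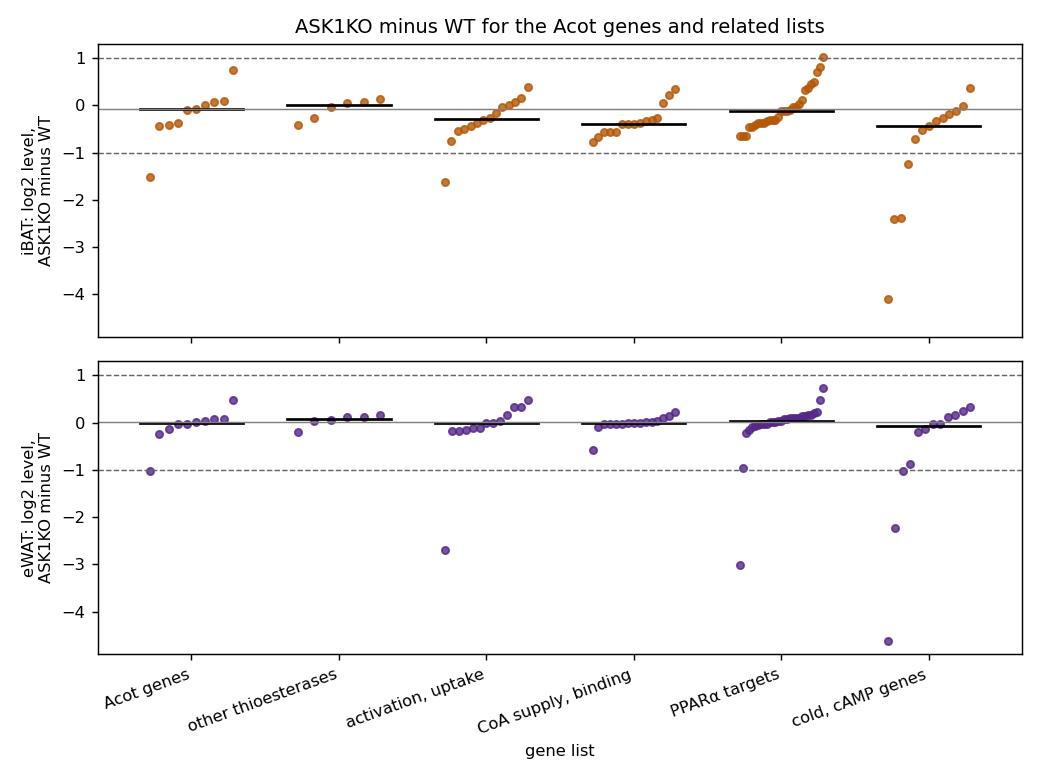
Log2 level in ASK1KO minus WT in iBAT (top) and eWAT (bottom) for the 10 Acot genes and the measured genes of 5 related lists. Each point is a gene, short black lines are the median of a list, the grey line is the median of all genes and dashed lines mark 2-fold. The cold and cAMP list reaches -4.10 in iBAT and -4.63 in eWAT, whereas 9 of the 10 Acot genes lie within 2-fold in each tissue.

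Of 10 thioesterases outside the selected members, 6 were measured in both tissues and none reached 2-fold between genotypes. Acot5, a peroxisomal enzyme, had log2 differences of 0.05 in iBAT and 0.16 in eWAT. Acot6, its neighbour in the cluster, had 0.07 and -0.20. Them4, which has 10 spots on the array, had -0.40 in iBAT and 0.13 in eWAT, and the SD over its spots was 0.119 and 0.0730. Hibch, which releases coenzyme A in valine breakdown, had -0.28 and 0.11. The palmitoyl-protein thioesterase genes Ppt1 and Ppt2 had values from -0.04 to 0.13 over both tissues. Acot12, a cytosolic acetyl-CoA hydrolase of liver, was well above background in WT iBAT alone, at a signal of 29.3. It was therefore at least 1.77-fold lower in ASK1KO iBAT, where the bound uses the lowest signal well above background. Them5, Baat and Olah were not well above background on any array.

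In the tissue comparison, 4 of these 6 were called higher in iBAT and 1 lower, again beside 30.8% and 24.6% of all genes. Hibch was higher by 1.25 ± 0.16 and Acot5 by 1.25 ± 0.15 on the log2 scale, with limma adjusted p-values of 0.00118 and 0.000736. The probes of Acot5 differed, with 2.22 at one and 0.38 at the other within WT. Ppt1 was lower in iBAT by 0.55, with a limma adjusted p of 0.0199.

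The promoters of Acot11 are shown because it was the member with the largest differences in both comparisons. RefSeq, on GRCm38.p6, gives 2 starts, and the 250 bases before each follow, with GGGCGG, the core of the GC box, in capitals.
Acot11 promoter, chr4:106799832-106800081, minus strand: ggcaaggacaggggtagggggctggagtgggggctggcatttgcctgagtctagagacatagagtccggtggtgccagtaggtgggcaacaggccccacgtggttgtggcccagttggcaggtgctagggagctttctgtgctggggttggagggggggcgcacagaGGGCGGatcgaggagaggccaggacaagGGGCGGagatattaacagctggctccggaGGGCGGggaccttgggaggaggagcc
Acot11 promoter, chr4:106805008-106805257, minus strand: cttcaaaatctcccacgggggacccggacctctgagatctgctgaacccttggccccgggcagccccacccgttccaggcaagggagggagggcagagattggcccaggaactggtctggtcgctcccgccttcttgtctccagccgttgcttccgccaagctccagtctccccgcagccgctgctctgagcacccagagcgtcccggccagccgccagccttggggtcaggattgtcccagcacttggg
The former window holds GGGCGG 3 times and the latter does not hold it. Over windows of 300 bases, which add 50 after the start, GGGCGG was found on either strand in 35.7% of 32851 promoters, and in 5 of 11 promoters that 9 of the 10 members have in this table. AGGTCA, the letters of a nuclear receptor site, was in 16.3% of all promoters and in 3 of these 11, which belong to Acot3 and Acot4. TGACGTCA, the cAMP response element, was in 1.79% and in none of the 11. None of these letter strings contains another. A match is a description of the letters only.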

How the data were processed

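Total RNA pooled from 3 mice was labelled with Cy3 and hybridized to 1 array for each genotype and tissue, 4 arrays in all. The authors deposited the output of Agilent Feature Extraction 10.7.3.1, a linear intensity for each spot after background correction, not scaled between arrays. The series table that the authors also deposited holds a linear signal, namely the same intensity of each array over a constant. Control spots and outlier spots were left out, spots of a probe were averaged as log2, and the 75th percentile over the probes of each array was subtracted. Detection of a probe required the scanner software's mark at most of its spots, and genes were averaged over probes detected on both arrays compared (on all 4 for the tissue comparison). The software gave the dimmest spots surrogate values, so differences at small signals are less certain. Of 34844 gene names, 22147 matched the RefSeq table, giving 22066 genes. Members were matched by the gene name in the files.

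Genes at least 2-fold apart were counted between genotypes, with no test, since each condition has 1 array. Tissue was tested with limma 3.58.1 (lmFit, eBayes) with genotype as covariate, and Benjamini-Hochberg adjustment over 14057 genes. P-values measure only the spread between these arrays, with a variance shared in large part over all genes, and not the spread between mice. The precision is limited by the number of arrays. Over spots of 1 probe, the SD of the log2 difference had a median of 0.0869 in iBAT (276 probes) and 0.0599 in eWAT (292 probes). The members, the related lists and the cell type markers were chosen with earlier results of these data known. The genes named are all members and other thioesterases, genes among the 3 lowest and 3 highest of each list, the 5 nearest to Acot11, Map3k5 and markers. Gk, the fourth of 4 genes counted, was named after its value was seen. One gene of a list is not reported here. The markers whose eWAT shares are named beside that of Acot11 were chosen after their values were seen. Alternatives covered the background (normexp, offset 50), the scaling (none, quantile, median, percentile over detected probes, series table), the filter on dim probes, the use of the brightest probe, a 1.5-fold limit, the terms of the fit and the omission of each array. The fits that left out an array also left out the genotype term. The steps were tested on simulated data. R 4.3.3 and Python 3.11.15 (pandas 2.3.3, numpy 2.4.6) were used.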

Additional observations from a re-analysis of the deposited data

Results flagged for a closer look

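Acot3 had opposite signs in the tissues, with a log2 difference between ASK1KO and WT of 0.75 in iBAT and -0.13 in eWAT. The difference between the tissues was not tested, and the value in eWAT is smaller than the software's error of 0.253. It rests on 1 of 2 probes, whose signal was 32.9 to 62.6 on the 4 arrays. When the probe that was not well above background is averaged in, the log2 difference is 0.23 in iBAT and 0.02 in eWAT, so the signs are then the same, and with normexp background correction the iBAT value is 0.36.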

How the results depend on the processing

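Between genotypes Acot11 kept its sign under every scaling tried, from -1.61 to -1.33 in iBAT and from -1.12 to -1.01 in eWAT. With normexp background correction it was at -0.80 in eWAT, and 0 members reached 2-fold there. Between tissues it lay between 5.93 without scaling and 7.54 when the ASK1KO iBAT array and the genotype term were both left out. At 1.5-fold, 2 members were counted in iBAT, Acot11 lower and Acot3 higher. Of the related lists, 6 genes reached 2-fold in iBAT and 5 in eWAT, against 11 and 10 when dim probes were kept, and 15 and 8 at the 1.5-fold limit.

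In the tissue comparison 7 members were called, 9 with normexp, 8 with quantile normalization or tissue alone in the fit, 5 with median centring or the series table, 6 without scaling (4 higher and 2 lower) and 4 with no filter on dim probes. Fits that left out 1 array also left out the genotype term and assume that a lone array of a tissue varies like the others. Their calls are therefore not counted here. Without scaling the log2 difference turned to -0.41 for Acot3, -0.23 for Acot4, -0.60 for Acot7, -0.29 for Acot8, -0.32 for Acot9 and -0.43 for Acot10, since this setting moves every tissue difference by the gap of the 75th percentiles between iBAT and eWAT arrays, which was -0.85. Within WT, with scaling, Acot3 was at -0.0072, and the cause of this was not tested.

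Over all genes, 266 were counted in iBAT, 106 with normexp, 1127 with no filter and 1262 at 1.5-fold. In eWAT 177 were counted, 60 with normexp, 1036 with no filter, 622 at 1.5-fold and 114 when a probe had to pass the background limit on every array. Between tissues 7799 were called, 6893 with the series table, 10574 with no filter and 10864 without scaling. In iBAT 45.1% of those counted were higher in ASK1KO, but 61.8% with the percentile over detected probes, 32.6% with median centring and 31.7% with the series table. Between tissues 55.6% of calls were higher in iBAT, but 11.8% without scaling and 67.8% with no filter. The slide was not fitted as a block, since all arrays share 1 slide. No paired analysis was possible because the labels number no replicates that groups could share, beyond the genotype term that the tissue fit already holds.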
